A study of Caenorhabditis elegans with 9 samples.

Results

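The genes described here are the 9 tubulin and actin genes tba-1, tba-2, tbb-1, tbb-2, tbg-1, act-1, act-2, act-3 and act-4. They were chosen by symbol out of 46245 genes in the deposited expression table, with earlier results of these data known. All 9 had a mean of at least 1 FPKM (fragments per kilobase of transcript and per 1000000 mapped fragments) and were among the 8572 genes tested. The RNA came from germ lines of Caenorhabditis elegans that the series title calls wild type, with no strain named. Worms were raised on standard OP50 bacteria, and as they became adults were moved to a new temperature and to RNAi bacteria; on day 6 of adulthood they were decapitated and the germ lines that came out were collected. The 3 groups of 3 libraries each were the knockdown of iff-1 at 15°C (iff-1 RNAi 15C), an empty vector for RNAi at 20°C (EV 20C) and the same empty vector at 15°C (EV 15C). All groups were therefore fed RNAi bacteria, and RNAi by feeding acts in the soma as well as in the germ line. According to the series' design text, iff-1 RNAi 15C and EV 20C were each to be set against EV 15C. The product of iff-1 is related to eIF5A, a factor of protein synthesis, and per the series title its knockdown stands for reduced proliferation of germ stem cells.

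Alpha- and beta-tubulin form dimers that assemble into microtubules, the tracks of the cell and the fibres of the meiotic and mitotic spindle. Gamma-tubulin sits in ring complexes that start new microtubules. Actin monomers assemble into filaments that shape the cell cortex and, with myosin, drive contraction. In the worm, tba-1 and tba-2 encode the main alpha-tubulins and tbb-1 and tbb-2 the main beta-tubulins of germ line and early embryo, whose oocytes are supplied with such transcripts by the germ line. The worm's actin genes code for nearly identical proteins, and act-5 is a separate actin of the intestine.

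On the WBcel235 annotation of Ensembl, tba-1 (WBGene00006528) lies at I:9785781-9787624 and tba-2 (WBGene00006529) at I:12964674-12966795, both on the minus strand. The beta-tubulin genes are on chromosome III, tbb-1 (WBGene00006536) at III:10740868-10742432 and tbb-2 (WBGene00006537) at III:4015910-4017627, and gamma-tubulin tbg-1 (WBGene00006540) is at III:9626536-9629154, all on the minus strand. Of the actin genes, act-3 (WBGene00000065, V:11071690-11074498, minus strand), act-2 (WBGene00000064, V:11076777-11078154, minus strand) and act-1 (WBGene00000063, V:11081052-11082415, plus strand) are neighbours, separated by 2278 nt and 2897 nt. The remaining gene, act-4 (WBGene00000066), is on the plus strand of the X chromosome at X:4960621-4964413. All 9 are annotated as protein-coding, with exonic lengths between 1264 nt for act-1 and 1676 nt for tba-2. The build the authors used is not given in the sources used here, so these positions describe WBcel235. Because the coding sequences of these families are so alike, reads may have been shared or split among act-1 to act-4, between tba-1 and tba-2, or between tbb-1 and tbb-2, and values of single genes in these families are uncertain to that extent. Exons of act-1, act-3 and act-4 also overlap annotated genes on the opposite strand (T04C12.30, T04C12.17, T04C12.26 and M03F4.6), of which none had more than 1.63 FPKM in any library. On the same strand, tbb-2 overlaps 1 annotated gene, 21ur-13952, whose level was not examined.

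The libraries had between 8120 and 8932 genes at 1 FPKM or more, and their values summed to between 973003 and 1064980 FPKM. No read counts were used; a rough estimate of depth from the spacing of low values was 34.3 to 40.7 per library, in units of 1000000 fragments. The targeted gene iff-1 had 103.9, 58.0 and 37.4 FPKM in iff-1 RNAi 15C, against 2677, 2653 and 2510.0 FPKM in EV 15C, and fell by 97.5% (limma adjusted p = 5.47e-05). All 8 germ line markers listed (glh-1, pgl-1, gld-1, glp-1, cgh-1, rme-2, oma-1 and nos-2) were well detected, summing to 4440 to 4612 FPKM in iff-1 RNAi 15C, 4471 to 4547 FPKM in EV 20C and 4563 to 4596 FPKM in EV 15C. Single markers moved within these sums: under iff-1 RNAi 2 rose (gld-1, log2 fold change 0.21, and glp-1, 0.17) and 3 fell (glh-1, -0.41, rme-2, -0.17, and nos-2, -0.16). In EV 20C 3 rose (nos-2, 0.65, rme-2, 0.22, and oma-1, 0.22) and 2 fell (glh-1, -0.36, and cgh-1, -0.19). Their part in the results on tubulins and actins was not tested. Of the 10 sperm markers found in the table, 8 stayed under 1 FPKM in every library, 5 of these being listed at 0 throughout, and an exact 0 in this table can be a failed estimate. The 1 sperm marker tested, spe-41, averaged 1.75 FPKM in iff-1 RNAi 15C, against 0.750 FPKM in EV 15C (log2 fold change 0.64, limma adjusted p = 0.0362), a call lost when EV 15C replicate 2 or 3 or iff-1 RNAi 15C replicate 1 or 2 was left out. Nothing in the labels says whether replicates are separate cultures, and the p-values therefore cover the spread among these libraries only, which may be technical. In RNA from a whole tissue, fewer cells of a type and less RNA per cell cannot be told apart.

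In these germ lines the tubulins and actins formed a steep order of levels. In EV 15C, tbb-2 averaged 1845 ± 45.1 FPKM and tba-2 1766 ± 29.5 FPKM (SD, n = 3 each), followed by act-2 with 1191 ± 66.1 FPKM, tba-1 with 892 ± 30.2 FPKM and tbb-1 with 851 FPKM over the 2 libraries in which it had a value. Gamma-tubulin tbg-1 followed with 102.5 ± 0.760 FPKM, and the 3 other actins came last, act-3 with 72.4 ± 5.01 FPKM, act-1 with 67.1 ± 3.11 FPKM and act-4 with 34.4 ± 4.07 FPKM. FPKM is a value per transcript length, which lets genes of different length be set side by side. Within a family, reads shared or split among close copies could change the order, which was not tested. In EV 15C the libraries of neighbours in this order did not overlap, except those of act-3 and act-1. The margin was small between tbb-2 and tba-2 (1803 FPKM in the lowest tbb-2 library, 1799.6 FPKM in the highest tba-2 library) and between tba-1 and tbb-1 (869 FPKM in the lowest tba-1 library, 858 FPKM in the highest tbb-1 library). In iff-1 RNAi 15C the libraries of tba-2 and tbb-2 overlapped, and so did those of tba-1 and tbb-1, while in EV 20C tbb-2 stood above tba-2 in every library and tba-1 above tbb-1. Ranked by mean level among the 8572 genes tested, tbb-2 was 106, tba-2 108, act-2 127, tba-1 157 and tbb-1 213 with its 2 zeros in the mean (172 over the 7 libraries in which it has a value), while tbg-1 was 1946, act-3 2485, act-1 2995 and act-4 4502.

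**Figure D1:**
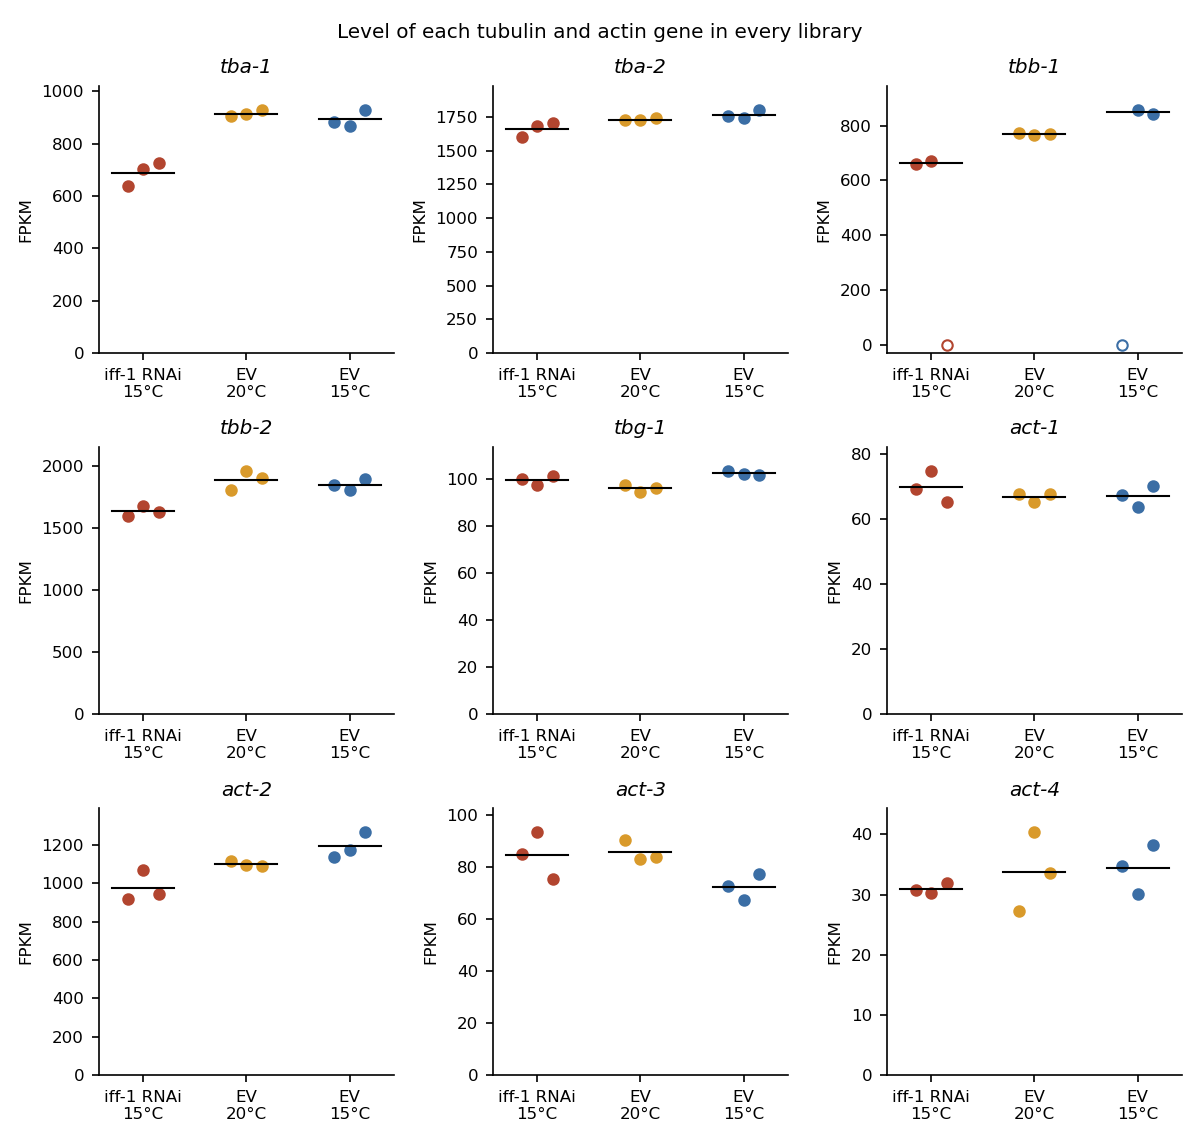
FPKM of each of the 9 genes (y axes, from 0) in the 3 libraries of iff-1 RNAi 15C, EV 20C and EV 15C (x axes); each point is a library, the line is the mean of the group, and open points are the 2 libraries in which tbb-1 is listed at 0, left out of its mean. The iff-1 RNAi 15C points of tba-1, tba-2, tbb-2, tbg-1 and act-2 sit below all EV 15C points, as do those of tbb-1 with open points left out. Of these, tba-1, tbb-2 and act-2 passed the test with the zeros kept in the fit.

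Under iff-1 RNAi, 3 of the 9 genes fell against EV 15C and none rose: tba-1, tbb-2 and act-2 (limma; at an unadjusted p under 0.05, 4 were lower and 1 higher). Of all genes tested, 31% passed the same threshold in this comparison (adjusted p under 0.05), 16% with a higher and 15% with a lower level. The libraries of the groups did not overlap for 5 of the 9, all of them lower. Of all genes tested, 49.7% did not overlap in either direction, and 23.6% were lower in all libraries. The median log2 fold change was -0.14 over the 9 genes, against 0.01 over all genes tested. Every fold change given is a difference of log2(FPKM + 1), a scale on which low genes appear to change less than they do.

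The largest fall among the 9 was that of tba-1, one of the main alpha-tubulins. It had 639.6, 702 and 724 FPKM in iff-1 RNAi 15C, against 882, 869 and 926 FPKM in EV 15C. The groups did not overlap, with the highest knockdown library well under the lowest control library. The mean fell by 22.9%, and the fitted change was -0.38 on the log2 scale (SE 0.05, limma adjusted p = 0.000997). The fall passed the test under all 20 alternative settings, with adjusted p between 0.000638 and 0.00557.

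Its partner tba-2, the more abundant alpha-tubulin, had 1598, 1684 and 1706 FPKM in iff-1 RNAi 15C, against 1754, 1744 and 1799.6 FPKM in EV 15C. All knockdown libraries lay below all control libraries, by a narrow margin. The log2 fold change was -0.09 (SE 0.03) and did not pass the test (limma adjusted p = 0.0879). Of all genes tested, 23.6% had every knockdown library below every control library.

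The beta-tubulin tbb-2 had 1591, 1674 and 1627 FPKM in iff-1 RNAi 15C, against 1841, 1803 and 1893 FPKM in EV 15C. The groups did not overlap. The mean fell by 11.7%, with a log2 fold change of -0.18 (SE 0.04, limma adjusted p = 0.0119). Under quantile normalization the log2 fold change was -0.16 and the call was lost (adjusted p = 0.0609).

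The beta-tubulin tbb-1 is listed at 0 in 1 library of iff-1 RNAi 15C (replicate 3) and in 1 of EV 15C (replicate 1), and had 658 and 669.5 FPKM in the other iff-1 RNAi 15C libraries, against 858 and 843 FPKM in the other EV 15C libraries. An exact 0 in a gene at 658 FPKM or more in every other library can be a failed estimate, so no mean over 3 is given. With the zeros in the fit nothing could be resolved (log2 fold change -0.24, SE 3.07, limma adjusted p = 0.965). With the zeros taken as missing, n is 2 in each group, the log2 fold change was -0.36 (SE 0.03), the mean fell by 21.9% and the limma adjusted p was 0.000649. On that reading 4 of the 9 genes fell, tbb-1 by a share close to that of tba-1.

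Gamma-tubulin, encoded by tbg-1, had 99.97, 97.4 and 101.3 FPKM in iff-1 RNAi 15C, against 103.3, 102.4 and 101.8 FPKM in EV 15C. Its libraries lay just below those of the control, and the log2 fold change of -0.04 (SE 0.03) did not pass the test (limma adjusted p = 0.254).

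Among the actins, act-2 was the gene that changed. It had 915, 1067 and 943 FPKM in iff-1 RNAi 15C, against 1138, 1170.4 and 1265 FPKM in EV 15C. The groups did not overlap, and the knockdown libraries also differed among themselves, with a SD of 81.1 FPKM around a mean of 975 FPKM. The mean fell by 18.1%, with a log2 fold change of -0.29 (SE 0.06, limma adjusted p = 0.00835), and the call held under all 20 alternatives, at adjusted p up to 0.0422. In the worm embryo act-2 is known to act together with act-1 and act-3 in the contractile cortex and in cytokinesis.

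None of the less abundant actins passed the test. The gene act-3 had 85.1, 93.4 and 75.5 FPKM in iff-1 RNAi 15C, against 72.5, 67.3 and 77.3 FPKM in EV 15C, with overlapping libraries, a log2 fold change of 0.22 (SE 0.08) and a limma adjusted p of 0.0663. Without replicate 3 of iff-1 RNAi 15C, the lowest of its group, act-3 passed the test (log2 fold change 0.30, adjusted p = 0.0172). The neighbouring act-1 had 69.3, 74.8 and 65.3 FPKM in iff-1 RNAi 15C, against 67.4, 63.9 and 70.1 FPKM in EV 15C, and the X-linked act-4 had 30.8, 30.2 and 31.9 FPKM in iff-1 RNAi 15C, against 34.8, 30.1 and 38.2 FPKM in EV 15C. Libraries of the 2 groups overlapped for act-1 and for act-4, and neither passed the test (log2 fold change 0.05, SE 0.05 and adjusted p = 0.476 for act-1; -0.14, SE 0.13 and 0.458 for act-4).

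**Figure D2:**
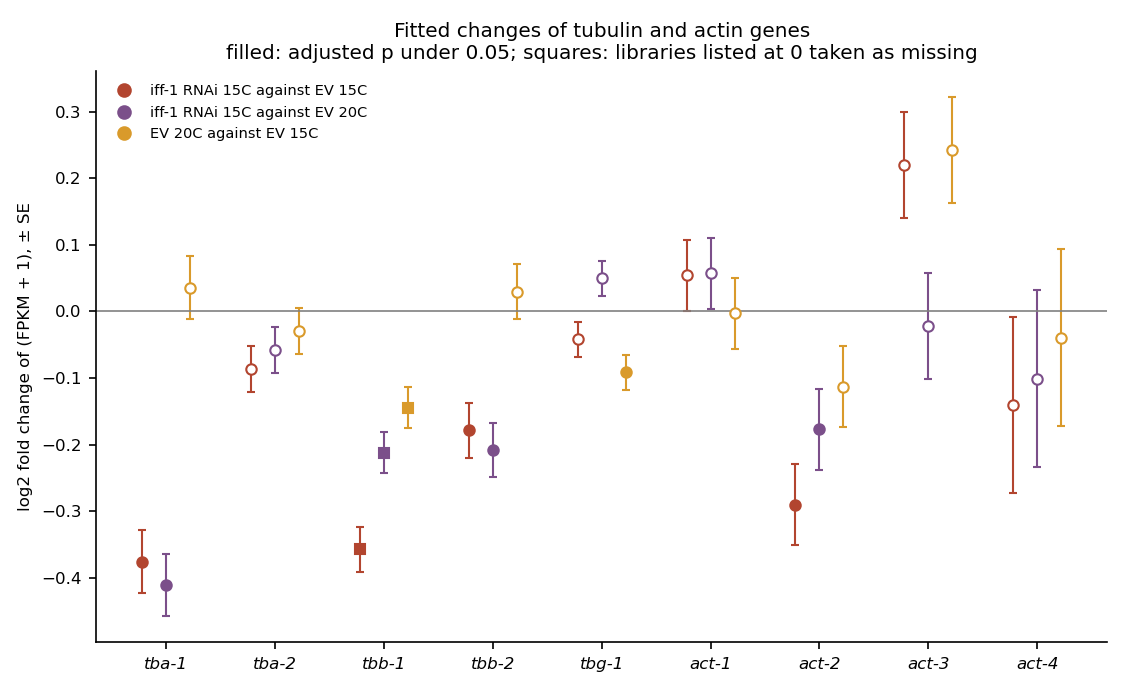
Fitted log2 fold change of (FPKM + 1) with its SE (y axis) for each gene (x axis) in the 3 comparisons; filled symbols passed the test at an adjusted p under 0.05, and squares for tbb-1 are fits with the libraries listed at 0 taken as missing. Against EV 15C, iff-1 RNAi 15C gave -0.38 for tba-1, -0.18 for tbb-2 and -0.29 for act-2, while act-3 stood at 0.22 without passing.

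Between EV 20C and EV 15C, 1 of the 9 genes passed the test, tbg-1, which fell by 6.19%, and none rose (limma; at an unadjusted p under 0.05, 1 was lower and 1 higher). Of all genes tested, 28% passed in this comparison, 19.3% with a higher and 8.69% with a lower level. With the zeros taken as missing 3 of the 9 passed, tbb-1 and tbg-1 lower and act-3 higher, and 0 to 2 passed when single libraries were left out. The libraries of the groups did not overlap for 4 of the 9 (45.4% of all genes tested), with 3 of them lower (16.2% of all genes tested). The median log2 fold change was -0.00 over the 9 genes and 0.03 over all genes tested. This comparison and the one above share the EV 15C libraries.

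For tbg-1, values were 97.6, 94.6 and 96.2 FPKM in EV 20C, against 103.3, 102.4 and 101.8 FPKM in EV 15C. The groups did not overlap, with a SD of 1.49 FPKM in EV 20C and 0.760 FPKM in EV 15C. On the log2 scale the difference was -0.09 (SE 0.03, limma adjusted p = 0.031). The call was lost in 7 of 20 alternatives: when EV 15C replicate 1 (adjusted p = 0.092), 2 (0.0781) or 3 (0.0613) or EV 20C replicate 2 (0.078) or 3 (0.0815) was left out, without a variance trend (0.0607), and when the libraries were scaled without the 10 highest genes (0.202).

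The alpha-tubulin tba-1 had 905, 911 and 927 FPKM in EV 20C, against 882, 869 and 926 FPKM in EV 15C, and tba-2 had 1725, 1727 and 1741 FPKM in EV 20C, against 1754, 1744 and 1799.6 FPKM in EV 15C. Libraries of tba-1 overlapped, while those of tba-2 were all lower at 20°C without passing the test. The log2 fold changes were 0.04 (SE 0.05, limma adjusted p = 0.609) and -0.03 (SE 0.03, adjusted p = 0.561); the sign of tba-1 turned under median ratio scaling and quantile normalization, and that of tba-2 under quantile normalization and under scaling without the 10 highest genes. The beta-tubulin tbb-2 had 1801, 1954 and 1898 FPKM in EV 20C, against 1841, 1803 and 1893 FPKM in EV 15C, overlapping, with a log2 fold change of 0.03 (SE 0.04, adjusted p = 0.624) that turned negative under median ratio scaling and passed the test under quantile normalization (0.20, adjusted p = 0.037). Its sister tbb-1 had 774, 766 and 769 FPKM in EV 20C, against 858 and 843 FPKM in the EV 15C libraries with a value, and with the zero taken as missing it fell by 9.54% (-0.14 on the log2 scale, SE 0.03, limma adjusted p = 0.0146, n = 3 against 2).

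Among the actins, act-3 was 18.4% higher in EV 20C, with 90.5, 82.9 and 83.7 FPKM, against 72.5, 67.3 and 77.3 FPKM in EV 15C. The groups did not overlap. The log2 fold change of 0.24 (SE 0.08) lay just outside the threshold (limma adjusted p = 0.0515), and passed it in 7 of the 20 alternatives, with adjusted p between 0.0257 and 0.159 over all of them. Among the 7 were the fits that left out iff-1 RNAi 15C replicate 2 (0.0374) or 3 (0.0257), which enter this comparison through the shared estimate of spread. For act-2, values were 1115, 1096 and 1089 FPKM in EV 20C, against 1138, 1170.4 and 1265 FPKM in EV 15C, all lower at 20°C, with a log2 fold change of -0.11 (SE 0.06, adjusted p = 0.194). The libraries of act-1 (67.7, 65.4 and 67.7 FPKM in EV 20C) and of act-4 (27.2, 40.3 and 33.6 FPKM in EV 20C) overlapped those of EV 15C given above, with adjusted p of 0.974 and 0.85. The spread of act-4 in EV 20C, a SD of 6.57 FPKM around 33.7 FPKM, was the widest of the 9 genes relative to its level, tbb-1 with its zeros apart.

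Set directly against EV 20C, iff-1 RNAi 15C differs in both RNAi and temperature, which this comparison alone cannot tell apart. Each is set against EV 15C above. The genes that fell were tba-1, tbb-2 and act-2 (limma, 3 of 9 lower and none higher, the same counts as at an unadjusted p under 0.05), where 48.9% of all genes tested passed the test, 20.5% with a higher and 28.4% with a lower level. Libraries did not overlap for tba-1, tba-2, tbb-1, tbb-2 and act-2, 5 of the 9, all lower, against 56.5% of all genes tested in either direction and 31.1% lower. The mean of tba-1 fell by 24.7% (log2 fold change -0.41, SE 0.05, limma adjusted p = 0.000267), that of tbb-2 fell by 13.5% (-0.21, SE 0.04, adjusted p = 0.00336) and that of act-2 fell by 11.4% (-0.18, SE 0.06, adjusted p = 0.0396). The calls of tba-1 and tbb-2 held in all 20 alternatives, whereas that of act-2 was lost in 12 of them, with adjusted p up to 0.618 under quantile normalization; among these were the fits that left out any of the EV 20C libraries (0.0764 to 0.0879), iff-1 RNAi 15C replicate 1 (0.136) or 3 (0.111), or EV 15C replicate 2 (0.0576). With the zero of iff-1 RNAi 15C taken as missing, tbb-1 fell by 13.7% (-0.21, SE 0.03, adjusted p = 0.00146, n = 2 against 3). The other genes did not pass: tba-2 at -0.06 (SE 0.03, adjusted p = 0.196), tbg-1 at 0.05 (SE 0.03, adjusted p = 0.147), and act-1, act-3 and act-4 with adjusted p of 0.401, 0.842 and 0.557.

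Sums over a family depend less than single genes on how reads were split among close copies, though not wholly, since FPKM divides by each copy's length. The alpha-tubulin pair tba-1 and tba-2 summed to 2351 ± 100.6 FPKM in iff-1 RNAi 15C, 2645 ± 20.0 FPKM in EV 20C and 2658 ± 59.7 FPKM in EV 15C (SD, n = 3 each). The beta-tubulin pair summed to 2296 ± 66.5 FPKM in iff-1 RNAi 15C (n = 2), 2654 ± 73.1 FPKM in EV 20C (n = 3) and 2698 ± 52.7 FPKM in EV 15C (n = 2), over the libraries in which tbb-1 had a value. In iff-1 RNAi 15C every library lay below every library of the other groups for both pairs. The sum of alpha-tubulin divided by that of beta-tubulin stayed between 0.970 and 1.02 in the 7 libraries with a value for tbb-1. For the 4 actins the sums were 1100.3 to 1266 FPKM in iff-1 RNAi 15C, 1274 to 1301 FPKM in EV 20C and 1312 to 1451 FPKM in EV 15C, again without overlap. This separation depended on the scaling: with median ratio scaling iff-1 RNAi 15C (1101 to 1289.5 FPKM) overlapped EV 20C (1250.5 to 1291 FPKM), and when scaled without the 10 highest genes EV 20C (1275 to 1348 FPKM) overlapped EV 15C (1286 to 1485 FPKM).

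The makeup of the alpha-tubulin pair shifted with the knockdown. The gene tba-1 made up 28.6% to 29.8% of the pair's sum in iff-1 RNAi 15C, 34.4% to 34.8% in EV 20C and 33.2% to 33.98% in EV 15C, and there was 2.42 ± 0.0724 times as much tba-2 as tba-1 in iff-1 RNAi 15C, 1.89 ± 0.0146 times in EV 20C and 1.98 ± 0.0337 times in EV 15C (SD, n = 3 each). The share of tbb-1 in the beta-tubulin pair was 28.6% to 29.3% in iff-1 RNAi 15C, 28.2% to 30.1% in EV 20C and 30.8% to 32.3% in EV 15C. In the actin family act-2 held 83.2% to 84.5% in iff-1 RNAi 15C, 85.3% to 85.7% in EV 20C and 86.7% to 87.9% in EV 15C, with no overlap among the groups. The share of act-3 ran the other way, at 6.76% to 7.74% in iff-1 RNAi 15C, 6.45% to 6.96% in EV 20C and 5.05% to 5.53% in EV 15C. Shares were given no test, and a shift in how reads are assigned among copies would move them too, which was not tested.

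**Figure D3:**
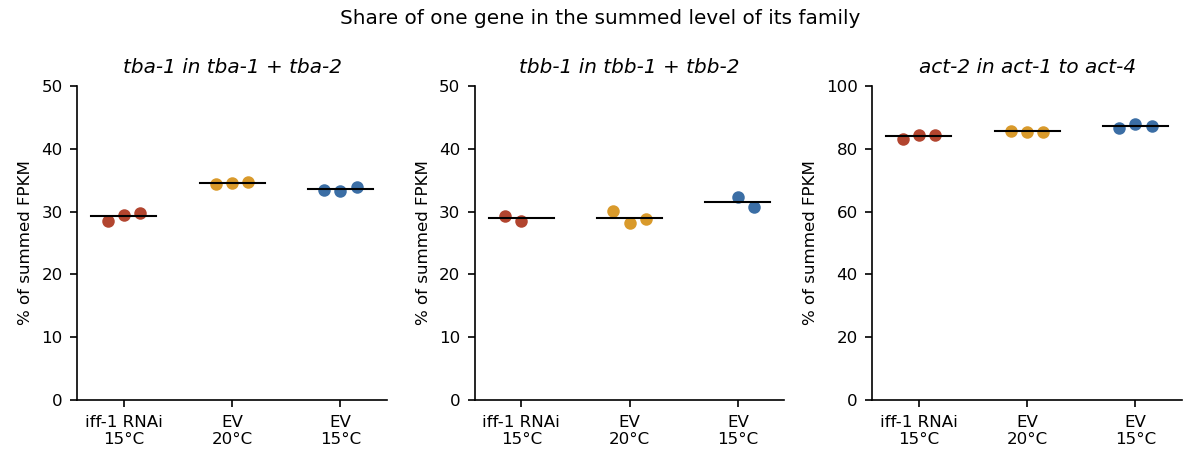
Share of tba-1 in tba-1 + tba-2, of tbb-1 in tbb-1 + tbb-2, and of act-2 in the 4 actins (y axes, % of summed FPKM, from 0) by group (x axes); points are libraries and lines group means, and the 2 libraries with tbb-1 listed at 0 are left out of its panel. The tba-1 share is 28.6% to 29.8% in iff-1 RNAi 15C and at least 33.2% in the other libraries.

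Some actin genes are known for muscle, and gonads pulled from a cut worm can carry sheath or body wall muscle along. The 18 muscle markers listed, among them the myosins unc-54 and myo-3, summed to 112.8, 97.95 and 128.9 FPKM in iff-1 RNAi 15C, 82.8, 137.1 and 101.4 FPKM in EV 20C and 156.2, 147.6 and 173.8 FPKM in EV 15C. EV 15C was thus the highest group in this sum. Its largest parts in EV 15C were mlc-2 (mean 48.6 FPKM) and pat-10 (39.6 FPKM), and 4 of the 18 stayed under 1 FPKM in every library. Of the 13 tested, 12 had a negative log2 fold change under iff-1 RNAi, all but unc-52, and 13 did in EV 20C. Counts of called genes in this list and those that follow stand against the shares over all genes tested. Under iff-1 RNAi 31% of all genes passed, 16% higher and 15% lower. In EV 20C 28% passed, 19.3% higher and 8.69% lower. Of the 13 tested, 3 fell under iff-1 RNAi (median log2 fold change -0.36) and 4 in EV 20C (median -0.33), none rose in either (limma; at an unadjusted p under 0.05, 5 were lower and 0 higher in each), and these counts depended on single libraries: with EV 15C replicate 1 or 3 or iff-1 RNAi 15C replicate 1 or 2 left out, 0 fell under iff-1 RNAi, and 5 did with EV 20C replicate 1 or 2 left out. In EV 20C, 1 fell with EV 15C replicate 1 left out or with EV 20C replicate 3 left out, and 2 fell with EV 15C replicate 2 or 3 left out. The defining markers were low, unc-54 at 1.53 to 3.61 FPKM and myo-3 at 0.960 to 2.92 FPKM. Together act-1, act-3 and act-4 summed to 185.3, 198.3 and 172.7 FPKM in iff-1 RNAi 15C, 185.4, 188.7 and 185.0 FPKM in EV 20C and 174.7, 161.3 and 185.7 FPKM in EV 15C. The members of this sum differed: act-4 alone had means of 31.0 FPKM in iff-1 RNAi 15C, 33.7 FPKM in EV 20C and 34.4 FPKM in EV 15C, and within each of the 3 groups its libraries stood in the same order as the muscle marker sum. For act-2, too, EV 15C was the highest group. The part of muscle RNA in the levels of these actins was not tested. Of 6 somatic gonad markers listed, 3 were tested and none was called against EV 15C. The sums of the 6 overlapped among groups. Of those tested, lim-7 averaged 2.76 FPKM in iff-1 RNAi 15C, 1.53 FPKM in EV 20C and 1.87 FPKM in EV 15C. Its iff-1 RNAi 15C libraries lay above all others (limma adjusted p = 0.0716 against EV 15C and 0.0106 against EV 20C). Under iff-1 RNAi inx-8 and inx-9 were at -0.20 and -0.08 on the log2 scale, with overlapping libraries. Intestine markers summed to 116.5 to 304.8 FPKM in iff-1 RNAi 15C, 67.1 to 160.2 FPKM in EV 20C and 95.2 to 301.0 FPKM in EV 15C, overlapping among groups. Cuticle markers summed to 5.10 to 13.1 FPKM in EV 20C, below the 13.3 to 24.7 FPKM of EV 15C. In iff-1 RNAi 15C their sum was 12.8 to 27.2 FPKM. Of the 4 cuticle markers tested, 2 fell in EV 20C (median log2 fold change -1.01) and none passed under iff-1 RNAi.

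**Figure D4:**
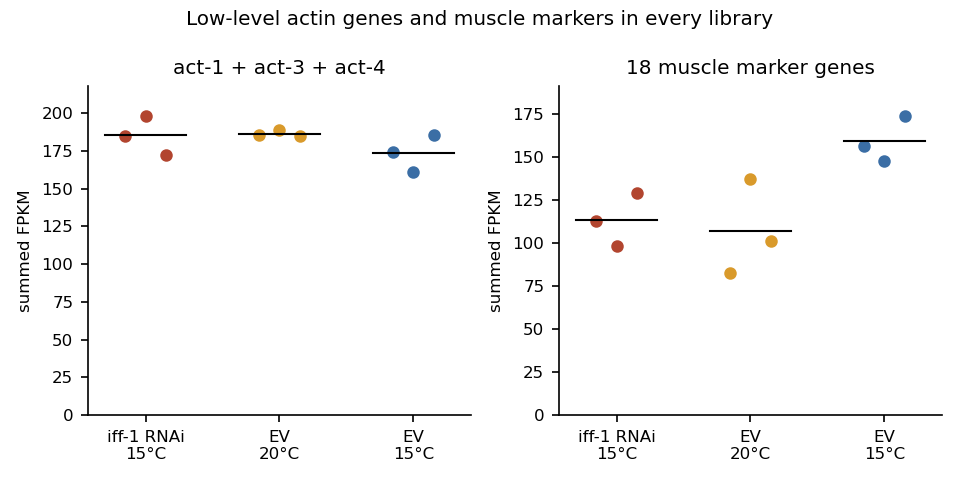
Summed FPKM (y axes, from 0) of act-1, act-3 and act-4, and of the 18 muscle markers, in each library by group (x axes), with lines at the group means. The 3 EV 15C libraries are the highest for muscle markers (147.6 to 173.8 FPKM), while the summed actins of EV 15C (161.3 to 185.7 FPKM) overlap those of the other groups; act-4 alone, not plotted here, had its highest mean in EV 15C.

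Other members of the tubulin family were scarce in these germ lines. Of 11 listed, 8 stayed under 1 FPKM in all libraries, among them mec-7, mec-12 and tbb-4, known from neurons. The most abundant of the remaining was ben-1, the beta-tubulin through which benzimidazole drugs act in the worm, with 24.2 ± 1.24 FPKM in iff-1 RNAi 15C, 29.5 ± 2.61 FPKM in EV 20C and 27.5 ± 1.45 FPKM in EV 15C (SD, n = 3 each). It was not called in either comparison with EV 15C. In iff-1 RNAi 15C against EV 20C, ben-1 was called lower (log2 fold change -0.27). The divergent beta-tubulin tbb-6 had 4.30, 4.03 and 4.13 FPKM in iff-1 RNAi 15C, against 2.89, 2.80 and 2.99 FPKM in EV 15C, and rose under the knockdown (log2 fold change 0.40, SE 0.11, limma adjusted p = 0.0228). This call was lost when EV 15C replicate 1 (adjusted p = 0.0571) or 2 (0.0687) or iff-1 RNAi 15C replicate 1 (0.0641) was left out. It was also lost with no filter on the mean FPKM (limma adjusted p = 0.0735). The alpha-tubulin tba-4 averaged 1.54 FPKM in iff-1 RNAi 15C, 0.982 FPKM in EV 20C and 1.31 FPKM in EV 15C, and did not pass the test.

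Newly made actin and tubulin are folded by the TRiC/CCT chaperonin, a ring of 8 different subunits, all of which were measured. Against EV 15C, 7 of 8 subunits fell under iff-1 RNAi (median log2 fold change -0.35) and 8 of 8 fell in EV 20C (median -0.23). The summed level was 2067 to 2093 FPKM in iff-1 RNAi 15C, 2046 to 2068 FPKM in EV 20C and 2433 to 2491 FPKM in EV 15C. The subunit cct-4 had 209, 211 and 224 FPKM in iff-1 RNAi 15C, against 295, 286 and 294 FPKM in EV 15C (log2 fold change -0.44, SE 0.03, limma adjusted p = 0.00014). The subunit cct-5 was the exception to the fall under iff-1 RNAi, with a mean of 560.0 FPKM in iff-1 RNAi 15C, against 544 FPKM in EV 15C, while in EV 20C its mean was 394 FPKM (log2 fold change -0.46, SE 0.03, adjusted p = 0.000417). 

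Prefoldin passes unfolded actin and tubulin to the chaperonin. Of its 6 subunits, none passed in EV 20C (limma; at an unadjusted p under 0.05, 1 was lower). Under iff-1 RNAi 1 rose and 1 fell, and 2 fell with EV 20C replicate 1 or 2 left out. The subunit gene pfd-3 fell, with 70.7, 73.7 and 80.5 FPKM in iff-1 RNAi 15C, against 108.5, 107.4 and 109.5 FPKM in EV 15C (log2 fold change -0.53, SE 0.05, limma adjusted p = 0.000327). The rise of pfd-5 under iff-1 RNAi (0.15, adjusted p = 0.0419) was lost when any 1 of EV 15C replicates 1 to 3, iff-1 RNAi 15C replicates 1 and 2, or EV 20C replicate 3 was left out (adjusted p 0.0576 to 0.131). It was also lost with no filter, median ratio scaling, no variance trend or a replicate block (limma adjusted p 0.0542 to 0.0924). Tubulin folding cofactors assemble the alpha-beta dimer. Of 6, 2 rose and 2 fell under iff-1 RNAi. The gene tbcc-1, for cofactor C, had 42.3, 36.7 and 38.4 FPKM in iff-1 RNAi 15C, against 31.6, 28.3 and 28.2 FPKM in EV 15C (log2 fold change 0.40, SE 0.07, adjusted p = 0.00309). In EV 20C tbcc-1 was the 1 gene of the list that rose (0.21, SE 0.07, adjusted p = 0.0436), a call lost when EV 15C replicate 2 or 3, any of the EV 20C libraries or iff-1 RNAi 15C replicate 3 was left out (adjusted p 0.0585 to 0.131). The 2 falls under iff-1 RNAi, of tbca-1 and tbcb-1, became 0 with EV 15C replicate 1 or 2 or iff-1 RNAi 15C replicate 1 or 2 left out, and 1 with EV 15C replicate 3 left out.

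Of 10 genes for microtubule nucleation and its centres, 1 rose and 1 fell under iff-1 RNAi, and 1 rose in EV 20C. The gene that rose in both is air-1, the Aurora A kinase of centrosomes, with 298, 299 and 306 FPKM in iff-1 RNAi 15C and 307, 309.9 and 306 FPKM in EV 20C, against 273, 260.1 and 274 FPKM in EV 15C. Its log2 fold changes were 0.16 (SE 0.03, limma adjusted p = 0.00285) and 0.19 (SE 0.03, adjusted p = 0.00193). The fall of ptrn-1, for a protein that binds microtubule minus ends, under iff-1 RNAi (-0.28, adjusted p = 0.0322) was lost when any 1 of the iff-1 RNAi 15C or EV 15C libraries or EV 20C replicate 3 was left out (adjusted p 0.0537 to 0.0987), and 2 genes of the list fell with EV 20C replicate 1 left out. The call of ptrn-1 was also lost with no filter, scaling without the 10 highest genes or a replicate block (limma adjusted p 0.0541 to 0.0596).

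Of 18 genes for microtubule motors and the spindle, 8 rose and 1 fell in EV 20C (median log2 fold change 0.13). Of all genes tested, 19.3% rose and 8.69% fell. Nearest the threshold among the 8 were klp-15 (limma adjusted p = 0.0292) and ebp-2 (0.0329). Over all called genes of this comparison the share of higher was 69.0%, and 54.1% with median ratio scaling. The largest rise of the list was that of mei-2, which with mei-1 forms the katanin that severs microtubules in the meiotic spindle. It had 427, 396 and 399 FPKM in EV 20C, against 318, 311 and 315 FPKM in EV 15C (log2 fold change 0.37, SE 0.03, limma adjusted p = 0.000534), and mei-1 rose with it (0.26, SE 0.03, adjusted p = 0.000905). The chromosome motor klp-19 rose by 0.23 (SE 0.02, adjusted p = 0.000787). Under iff-1 RNAi 2 of the 18 rose and 4 fell, against 16% higher and 15% lower of all genes tested. Among those that fell were dhc-1, the dynein heavy chain, with 20.1, 24.6 and 30.0 FPKM in iff-1 RNAi 15C, against 35.4, 38.2 and 35.9 FPKM in EV 15C (log2 fold change -0.55, SE 0.12, adjusted p = 0.0103), and cls-2, for a microtubule-stabilizing CLASP (-0.25, SE 0.05, adjusted p = 0.00531). The 4 falls became 2 when EV 15C replicate 3 or iff-1 RNAi 15C replicate 1 was left out. The 2 rises became 0 when any of the EV 15C libraries or iff-1 RNAi 15C replicate 2 was left out, 1 with iff-1 RNAi 15C replicate 1 or 3 or EV 20C replicate 3 left out, and 4 with EV 20C replicate 1 left out.

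**Figure D5:**
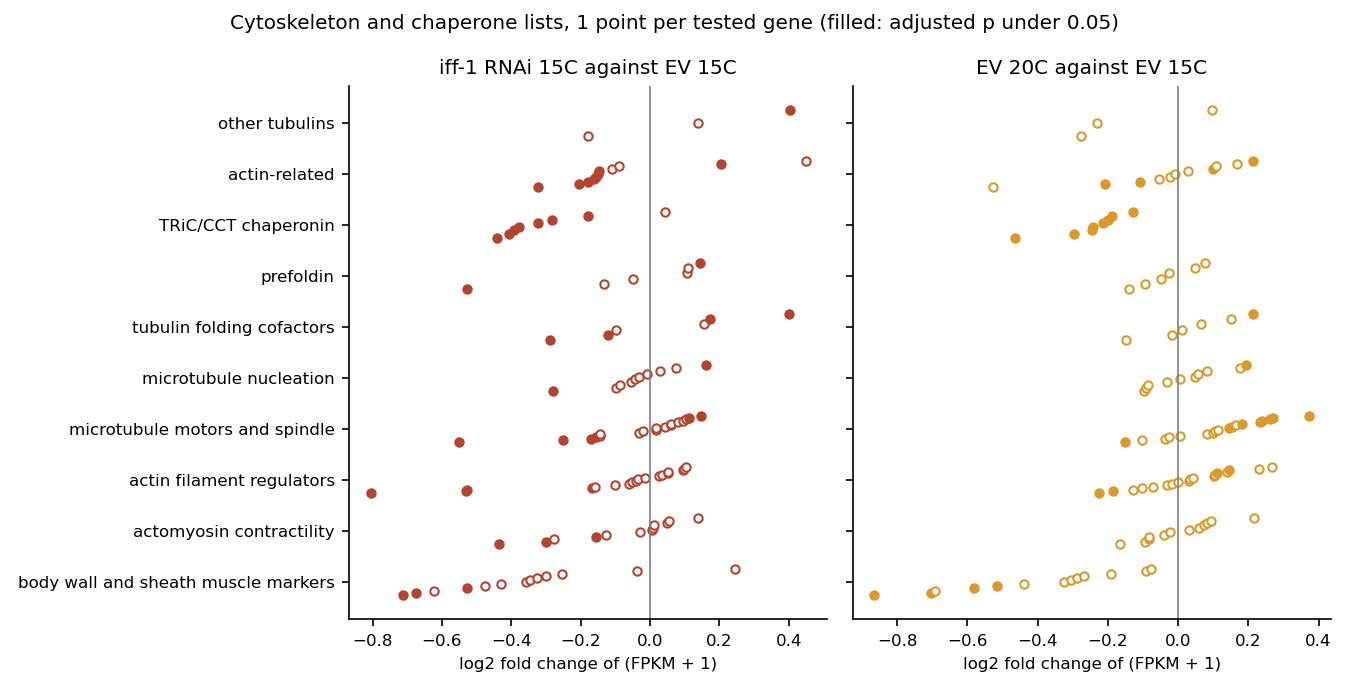
Log2 fold change of (FPKM + 1) (x axes) of each tested gene, by list (y axis), for iff-1 RNAi 15C against EV 15C and for EV 20C against EV 15C; each point is a gene and filled points passed the test at an adjusted p under 0.05. The chaperonin row lies below 0 in both panels apart from cct-5 on the left, and 8 filled points of the motor and spindle row lie above 0 on the right.

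On the actin side, the Arp2/3 complex (the arx genes) starts branched filaments. Of 11 actin-related genes, 7 fell and 1 rose under iff-1 RNAi (median log2 fold change -0.15), and 2 rose and 2 fell in EV 20C (median -0.01). The subunit gene arx-1 had 68.7, 69.7 and 71.0 FPKM in iff-1 RNAi 15C, against 84.5, 88.97 and 89.3 FPKM in EV 15C (log2 fold change -0.32, SE 0.04, limma adjusted p = 0.000757). The 7 falls became 3 when iff-1 RNAi 15C replicate 1 or 2 was left out. In EV 20C the 2 rises, of arp-11 and arx-3, became 1 with EV 15C replicate 2 left out or with EV 20C replicate 3 left out. The call of arx-3 (0.10, adjusted p = 0.0273) was lost in 8 of 20 alternatives, 4 of which left out a library: EV 15C replicate 1 (adjusted p = 0.0912) or 2 (0.0747), or EV 20C replicate 2 (0.0631) or 3 (0.0729). The others were median ratio scaling (0.177), quantile normalization (0.416), scaling without the 10 highest genes (0.051) and no variance trend (0.0529). The 2 falls, of arp-6 and arx-2, became 1 when any of the EV 15C libraries, EV 20C replicate 1 or 3, or iff-1 RNAi 15C replicate 1 was left out. The gene arp-6, whose yeast relative belongs to a chromatin remodelling complex, was higher under iff-1 RNAi (0.20, adjusted p = 0.00408) and lower in EV 20C (-0.21, adjusted p = 0.00486); the comparisons share their control libraries.

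Of 18 tested regulators of actin filaments, 4 fell and none rose under iff-1 RNAi (limma; at an unadjusted p under 0.05, 5 were lower and 2 higher). The largest fall was that of cas-1, a cyclase-associated protein that recycles actin monomers, with 16.1, 17.6 and 20.4 FPKM in iff-1 RNAi 15C, against 31.2, 33.4 and 31.8 FPKM in EV 15C (log2 fold change -0.80, SE 0.09, limma adjusted p = 0.000667). The WAVE complex gene gex-2 fell by 0.53 on the log2 scale (SE 0.08, adjusted p = 0.00192), and cap-1, for a subunit of capping protein, fell by 0.17 (SE 0.03, adjusted p = 0.00734). In EV 20C, 3 rose and 2 fell. The 3 rises became 0 with EV 15C replicate 2 left out or with EV 20C replicate 3 left out, 1 when EV 15C replicate 1 or 3 or EV 20C replicate 2 was left out, and 5 with EV 20C replicate 1 left out. The 2 falls, of erm-1 and cyk-1, became 1 with EV 20C replicate 3 left out. Under median ratio scaling and quantile normalization 0 of the list rose.

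Of 12 genes for actomyosin contraction, 3 fell and none rose under iff-1 RNAi, and none passed in EV 20C (limma; at an unadjusted p under 0.05, 4 were lower and 1 higher under iff-1 RNAi, and 1 was lower in EV 20C). Non-muscle myosin nmy-2, the motor of the germ line cortex, had 93.8, 100.3 and 110.9 FPKM in iff-1 RNAi 15C, against 119.2, 128.0 and 128.3 FPKM in EV 15C. Its libraries did not overlap, and it fell by 0.30 on the log2 scale (SE 0.06, limma adjusted p = 0.00821). The spectrin gene spc-1 fell by 0.44 on the log2 scale (SE 0.10, adjusted p = 0.0133), a call lost with EV 15C replicate 1 left out (adjusted p = 0.0511). Lower, too, was ani-1 (-0.15, adjusted p = 0.0193). Its call was lost with EV 15C replicate 2 or 3 or iff-1 RNAi 15C replicate 1 or 2 left out (adjusted p 0.0535 to 0.0687). Scaling without the 10 highest genes lost it as well (0.0547). In EV 20C ani-1 passed as lower with median ratio scaling (0.0382) and quantile normalization (0.0354). Scaled without the 10 highest genes, mlc-4 (0.0218) and mlc-5 (0.0135) passed as higher in EV 20C. Of the 12 genes, cyk-4 could not be resolved in either comparison with EV 15C. Its log2 fold change was 0.01 under iff-1 RNAi and 0.07 in EV 20C, with an SE of 2.96 in each.

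Across the 9 libraries, tba-1 and tbb-2 varied together (Pearson r of log2(FPKM + 1) = 0.946), as did tba-1 and tba-2 (0.869) and tba-2 and act-2 (0.869). The correlation of act-2 with act-3 was -0.28 and that of act-1 with act-3 0.677. These correlations describe 9 libraries, and the points share their groups and the scaling of each library. The tested genes most like each member, by r over the 9 libraries, were C16C10.8 (0.990) and let-630 (0.989) for tba-1, F21F3.4 (0.944) with an unnamed gene (0.949) for tba-2, slc-17.7 and fah-1 (0.984 each) for tbb-2, and cest-35.1 (0.967) and pges-2 (0.964) for tbg-1. For the actins they were pygo-1 (0.808) and F09E5.14 (0.806) for act-1, ints-5 (0.950) and plin-1 (0.920) for act-2, praf-3 (0.965) and tsp-7 (0.950) for act-3, and inx-13 (0.951) and F10A3.17 (0.950) for act-4. For tbb-1 the 2 libraries at 0 set the likeness over 9 libraries (T22F3.2, 0.907, leads it), and over the other 7 libraries C37H5.5 (0.996) and txl-1 (0.993) were nearest. The best 2 of 8572 genes can reach a high r over so few libraries.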

How the data were processed

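RNA from 9 libraries of extruded germ line was analysed, 3 per group. Per the labels, poly-A mRNA was sequenced from a stranded kit as paired 75-nt reads. The deposited table holds 1 FPKM value per gene and library, as computed by the authors; the tools named in the submitters' processing notes are CASAVA and Cufflinks. For the aligner, genome build, annotation and strand setting: not given in the sources used here. Between 38.5% and 41.7% of low values lay within 0.1 fragment of a whole number, too few to recover counts, so no count model was used.

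From these values log2(FPKM + 1) was tested with limma 3.58.1 in R 4.3.3, with a variance trend, in 1 fit of 9 libraries for 8572 genes whose mean FPKM was at least 1. Tests were two-sided, with Benjamini-Hochberg adjustment over all genes tested and a threshold of 0.05; SE is limma's. The fit was also run on data simulated with independent noise per gene, and no outcome of that run is used here. The simulation held no reads shared among copies and no effects shared by the genes of a library. Symbols were matched for 43227 IDs, and 45990 IDs were in the WBcel235 annotation.

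The 9 genes, the lists and the rule for named genes were chosen with earlier results of these data known. Named genes are the 9, iff-1, the 2 genes most correlated with each, and up to 3 genes per list with the smallest adjusted p in each comparison with EV 15C. The genes tbca-1, arx-2, klp-15, ebp-2, cyk-4 and the cell type markers are named outside that rule, chosen after their values were seen. The alternatives were 2 pseudocounts, 2 filters, 3 scalings, no variance trend, a replicate block, zeros as missing (for genes with a mean of at least 10 FPKM), fits of 6 libraries, and leaving out each library.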

Additional observations from a re-analysis of the deposited data

How the results depend on the processing

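Of the 9 genes, the calls of tba-1 and act-2 under iff-1 RNAi against EV 15C, and of tba-1 and tbb-2 against EV 20C, held in all 20 alternatives, and that of tbb-2 against EV 15C in 19. For the list genes taken up by the naming rule, in the comparison that named them, 982 outcomes kept direction and side of the threshold, 69 lost a call, 20 gained it and 3 turned sign. Precision is limited by 3 libraries per group, and the depth is known only as an estimate.

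Between EV 20C and EV 15C, 1 of the 9 genes passed; the count was 2 with a pseudocount of 0.1, with a mean of at least 10 FPKM, with quantile normalization and with only the 6 libraries compared, 3 with zeros taken as missing (act-3 higher, tbb-1 and tbg-1 lower), and 0 without a variance trend. Leaving out 1 library gave 0 to 2 of the 9 and 1514 to 2518 of all genes, against 2401. The share of higher among called genes was 69.0%, against 54.1% with median ratio scaling and 55.3% with quantile normalization, and 77.9% when scaled without the 10 highest genes. The sums in EV 20C were 2607 FPKM (alpha-tubulins) and 1268 FPKM (actins) with median ratio scaling, and 2696 and 1311 FPKM when scaled without the 10 highest genes. Causes of these shifts were not tested.

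Signs turned in these cases, all on the log2 scale. For EV 20C against EV 15C, median ratio scaling gave -0.00329 for tba-1 and -0.00912 for tbb-2, quantile normalization gave -0.00363 for tba-1 and 0.11 for tba-2, scaling without the 10 highest genes gave 0.00244 for tba-2 and 0.0278 for act-1, and zeros as missing gave -0.14 for tbb-1. Leaving out 1 library gave -0.14 to 4.73 for tbb-1, -0.0376 to 0.0283 for act-1 and -0.17 to 0.10 for act-4. For iff-1 RNAi 15C against EV 15C, quantile normalization gave -0.00329 for tba-4, and leaving out 1 library gave -3.48 to 2.89 for tbb-1 and -0.0146 to 0.287 for tba-4. For iff-1 RNAi 15C against EV 20C, act-3 was 0.0021 with median ratio scaling and 0.00851 with quantile normalization, and leaving out 1 library gave -0.0943 to 0.0571 for act-3 and -0.24 to 0.0342 for act-4. None of the values of turned sign passed the test apart from tbb-1 with zeros as missing.

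Same-numbered libraries of different groups did not deviate together (r between -0.19 and 0.0817 over 9 pairs, against -0.14 to 0.21 over 18 other pairs), so the numbers were not taken as pairs. With the replicate number as a block, 2158 genes passed in EV 20C against EV 15C with 1 of the 9 among them, 2425 in iff-1 RNAi 15C against EV 15C with 3, and 4051 in iff-1 RNAi 15C against EV 20C with 2. Of the 9 genes, the block lost act-2 against EV 20C (adjusted p = 0.0554).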
